A study of Mus musculus with 6 samples.

Results

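Elastic fibers give the uterine wall, its vessels and other stretched tissues their recoil. They are built on a scaffold of microfibrils, which are bundles of fibrillins (Fbn1, Fbn2) with small associated proteins (Mfap2, Mfap4, Mfap5). Fibulins (Fbln1, Fbln2, Fbln5) help to place tropoelastin (Eln) on this scaffold, and lysyl oxidase (Lox) crosslinks it into an insoluble core. The 10 genes described here were taken by gene symbol. Of them, 9 had at least 1 probe set carrying that symbol alone, with 19 probe sets in all among the 45037 on each array. Fbn1 was not analysed here. Where a gene had several probe sets, the one with the highest mean over the 6 arrays stood for the gene, and the others are given beside it.

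The 6 Affymetrix arrays were hybridized with RNA of uteri from female mice aged 4 weeks, 3 mutant and 3 control. The mutant carried Pgr cre/+ together with Ctnnb1f(ex3)/+, so that Cre made from the Pgr locus took out the third exon of Ctnnb1 wherever Pgr was expressed and left a β-catenin that is not degraded. This Cre is also known to act in the pituitary, ovary and mammary gland, so the alleles are not limited to the uterus. The controls were labelled wild type, while the methods describe them as mice with either the Cre or the floxed allele alone. The comparison asks which transcripts differed in the uterus once β-catenin was stabilized. The methods state that RNA of 3 mice per genotype was pooled, so the 3 arrays of a group may not be separate animals, and each p-value then reflects no more than the spread among these arrays, which may be technical. Ctnnb1 itself had log2 intensities of 11.72, 11.92 and 11.93 on the mutant arrays, against 11.51, 11.54 and 11.53 on the control arrays. Its log2 fold change of 0.33 (SE, the standard error, 0.09, limma adjusted p = 0.0498) was no longer called once any array but mutant replicate 1 was left out (0.29 to 0.33, adjusted p of 0.106 to 0.155). Averaged over its probe sets on all 6 arrays, Ctnnb1 had a log2 fold change of 0.48 (limma adjusted p = 0.0244). The probe sets were not placed relative to the deleted exon. Median intensities were 7.23 to 7.42 over the 6 arrays on the linear scale, before log2 was taken. Depth in reads does not apply to arrays, and the number of arrays limits the precision. Mutant replicate 1 stood nearest to the controls: it was the highest of the mutant arrays for 62.3% of the genes called lower and the lowest for 63.1% of those called higher. RNA of all cells of the uterus was measured together, so fewer cells of a type and less RNA per cell cannot be told apart.

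In the mutant uterus, Mfap5, Mfap4 and Lox fell, Eln rose, and the other 5 measured genes did not pass the test. Mfap5 fell to 0.293 of its control intensity, Mfap4 to 0.363 and Lox to 0.499, while Eln rose 1.70-fold. A gene was called when its Benjamini-Hochberg adjusted p from limma, over 18193 genes, was under 0.05. At this threshold, 5.61% of all genes were called higher and 6.36% were called lower, against 1 and 3 of the 9 measured genes here. Every mutant array lay below every control array for 5 of the 9 (Mfap4, Mfap5, Fbln2, Fbln5 and Lox) and above for 1 (Eln), against 17.4% and 14.9% of all genes. The median log2 fold change of the 9 was -0.42, beside a median of -0.01 over all genes. The 4 calls were lost with values under 16 set to 16 (0.0731 to 0.128 for the limma adjusted p). The brightest probe sets of these 4 genes had no value under 16, and their log2 fold changes were the same at that floor. The calls were also lost under a t-test after Benjamini-Hochberg adjustment over all genes (0.092 to 0.141). The methods name this t-test for comparing groups in general and not for the arrays.

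**Figure D1:**
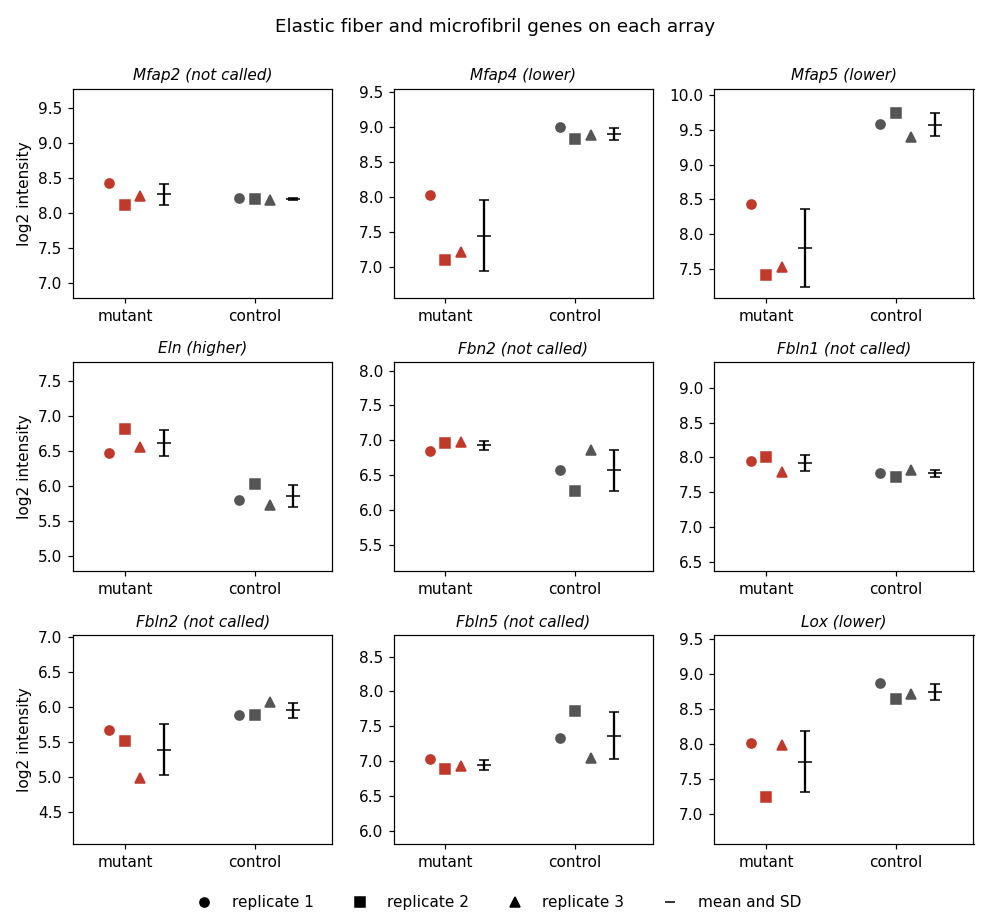
Log2 intensity (y axis) of the 9 measured genes, each by its brightest probe set, on the 3 mutant (red, left) and 3 control (grey, right) arrays; symbols mark the replicate number, the bars beside them the mean and SD, and each panel spans the same number of log2 units. The mutant arrays lie below the control arrays for Mfap4, Mfap5, Fbln2, Fbln5 and Lox and above them for Eln, and the groups overlap for Mfap2, Fbn2 and Fbln1.

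The microfibril-associated proteins did not move together. Mfap5, or MAGP-2, binds fibrillins and is also known to bind Notch ligands. It had log2 intensities of 8.44, 7.42 and 7.53 on mutant arrays 1 to 3, against 9.58, 9.74 and 9.40 on control arrays 1 to 3. The groups were well apart, and mutant replicates 2 and 3 lay below mutant replicate 1. The log2 fold change of Mfap5 was -1.77 (SE 0.26, limma adjusted p = 0.00601), the 37th lowest of all genes. Its second probe set, 1449082_at, had 7.27, 6.28 and 6.54 on the mutant arrays, against 8.29, 8.20 and 8.06 on the control arrays. This gave a log2 fold change of -1.48 (SE 0.22, limma adjusted p = 0.00673 over all probe sets), with the same order among the mutant arrays. Both probe sets read transcripts of 1 gene in the same RNA and are not independent of each other.

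Mfap4, a fibrinogen-like glycoprotein that binds tropoelastin and fibrillin, was read by 1 probe set. It had log2 intensities of 8.03, 7.09 and 7.21 in the mutant, against 9.0, 8.83 and 8.89 in the control. As for Mfap5, all mutant arrays were low and mutant replicate 1 was the least low. The log2 fold change was -1.46 (SE 0.23, limma adjusted p = 0.00794), the 79th lowest of all genes. The calls of Mfap4 and Mfap5 were kept on leaving out each array in turn, with log2 fold changes of -1.76 to -1.29 for Mfap4 and -2.10 to -1.58 for Mfap5. Within the mutant group the arrays spread over 0.94 for Mfap4 and 1.02 for Mfap5, against 0.17 and 0.34 within the control group.

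Mfap2, or MAGP-1, the other small fibrillin-binding glycoprotein of microfibrils, had log2 intensities of 8.43, 8.12 and 8.25 in the mutant, against 8.22, 8.20 and 8.18 in the control. The mutant values lay on both sides of the control values. Its log2 fold change was 0.07 (SE 0.10, 95% confidence interval -0.16 to 0.29, limma adjusted p = 0.725), and without mutant replicate 1 it was -0.01. Its second probe set, 1447833_x_at, whose suffix marks probes that may also bind other transcripts, had a log2 fold change of 0.04 (SE 0.08). The change of Mfap5 less the change of Mfap2, taken within each array, was -1.84 (SE 0.26). The within-array difference ran from -0.72 to 0.02 on the mutant arrays, against 1.22 to 1.54 on the control arrays. An exact two-sided permutation test over the arrays gave p = 0.1, and p = 0.1 adjusted over the 3 pairs tested, which is the smallest p that 3 against 3 arrays allow.

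Eln, which encodes tropoelastin, the monomer of the elastic core, had log2 intensities of 6.47, 6.82 and 6.56 in the mutant, against 5.80, 6.03 and 5.73 in the control. Each mutant array was above each control array, and mutant replicate 2 was the highest. The log2 fold change was 0.76 (SE 0.12, limma adjusted p = 0.00904). The call held on leaving out each array (0.66 to 0.85, adjusted p of 0.0112 to 0.0469). The second Eln probe set, 1420854_at, lay close to an intensity of 16, with 4.21, 4.40 and 4.16 in the mutant, against 4.12, 4.05 and 4.06 in the control. It was also higher on every mutant array, at a log2 fold change of 0.18 (SE 0.09, limma adjusted p = 0.338 over all probe sets), and did not pass. Averaged over both probe sets, Eln rose by 0.47 (limma adjusted p = 0.0198). Changes may be understated at such low intensities.

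Lox, the copper enzyme that crosslinks elastin and collagen, had log2 intensities of 8.01, 7.24 and 7.99 in the mutant, against 8.88, 8.65 and 8.72 in the control. Mutant replicate 2 was the lowest array, and mutant replicates 1 and 3 were nearly level. The log2 fold change was -1.0 (SE 0.20, limma adjusted p = 0.0199). Leaving out control replicate 1 (-0.94, adjusted p = 0.0809) or control replicate 3 (-1.02, adjusted p = 0.0563) ended this Lox call, as did averaging its probe sets (-0.52, adjusted p = 0.0591). The probe set 1448228_at had 6.46, 5.88 and 6.20 in the mutant, against 6.78, 6.61 and 6.6 in the control. The groups did not overlap there either, but the log2 fold change of -0.49 (SE 0.14, limma adjusted p = 0.0892 over all probe sets) did not pass. This probe set was called lower without mutant replicate 1 (-0.62, adjusted p = 0.0292). The dimmest Lox probe set, 1437903_at, was under an intensity of 16 on all 6 arrays and overlapped between the groups. Eln and Lox, the crosslinked protein and its crosslinking enzyme, moved in opposite directions. The change of Eln less the change of Lox within each array was 1.77 (SE 0.38), with differences of -1.54 to -0.42 on the mutant arrays, against -3.08 to -2.62 on the control arrays (exact two-sided permutation p = 0.1, adjusted p = 0.1, the smallest possible).

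**Figure D2:**
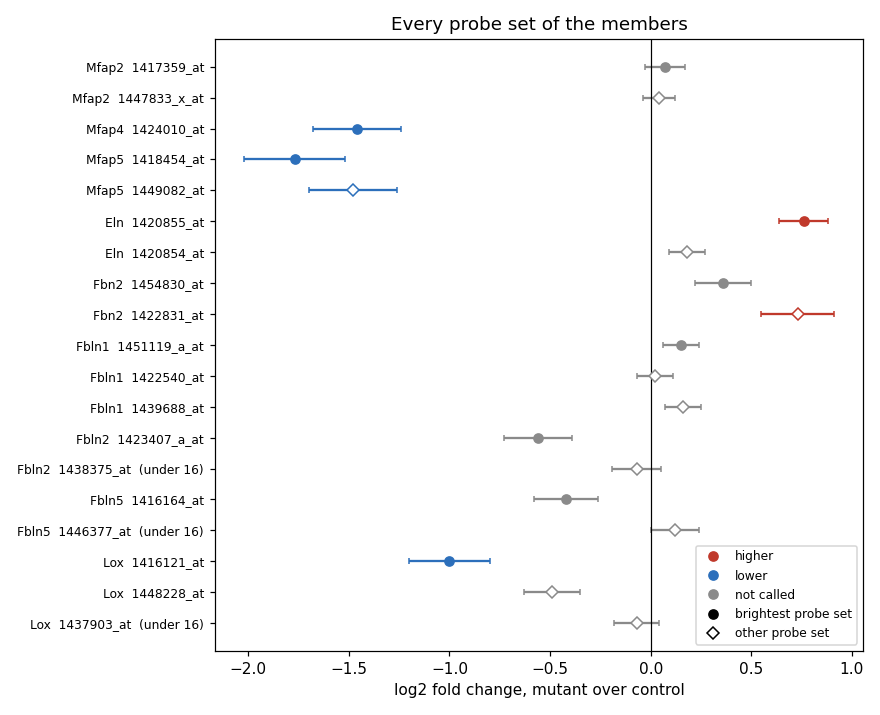
Log2 fold change of mutant over control (x axis) with its SE for all 19 probe sets of the 9 measured genes (y axis), from limma over all probe sets; filled circles are the brightest probe set of a gene, open diamonds the others, red is called higher, blue lower and grey not called. Both Mfap5 probe sets stand furthest left with the Mfap4 probe set, the 3 Lox probe sets lie between -1.0 and -0.07, and the probe sets marked under 16 lie near 0.

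Over the 19 probe sets, 2 were called higher, 4 lower and 13 were not called with all 45037 probe sets adjusted together, where 3.49% of probe sets were called higher and 3.41% lower. Of the 8 genes with several probe sets, no gene had probe sets called in opposite directions. The 3 probe sets under an intensity of 16 on every array belonged to Fbln2, Fbln5 and Lox, and none of them was called.

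Fbn2, the fibrillin most abundant in developing tissue, was the 1 gene whose brightest probe set was not called while another was. The brightest had log2 intensities of 6.85, 6.96 and 6.97 in the mutant, against 6.58, 6.27 and 6.86 in the control. Mutant replicate 1 and control replicate 3 were level, and the log2 fold change was 0.36 (SE 0.14, limma adjusted p = 0.165). The probe set 1422831_at had 6.25, 6.46 and 6.21 in the mutant, against 5.61, 5.17 and 5.93 in the control. Here the groups did not overlap, and the log2 fold change of 0.73 (SE 0.18) had an adjusted p of 0.0462 from limma over all probe sets. This call did not hold when any array but control replicate 3 was left out (0.53 to 0.78, adjusted p of 0.0718 to 0.17).

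None of the 3 fibulins among the 10 genes passed the test. Fbln5, a short fibulin required for elastic fiber assembly in mice, had log2 intensities of 7.03, 6.89 and 6.93 in the mutant, against 7.33, 7.72 and 7.05 in the control. The mutant arrays were the lower ones but control replicate 3 lay close to mutant replicate 1, and the log2 fold change was -0.42 (SE 0.16, 95% confidence interval -0.79 to -0.05, limma adjusted p = 0.145). Fbln2, a large fibulin of basement membranes and elastic fibers, had 5.67, 5.52 and 4.98 in the mutant, against 5.89, 5.89 and 6.08 in the control. Its log2 fold change was -0.56 (SE 0.18, limma adjusted p = 0.0831), and it was called lower only without mutant replicate 1 (-0.70, adjusted p = 0.0454). Fbln1, a fibulin of elastic fiber cores and basement membranes, had 7.95, 8.01 and 7.79 in the mutant, against 7.77, 7.72 and 7.82 in the control, which overlapped. Its log2 fold change was 0.15 (SE 0.09, 95% confidence interval -0.06 to 0.35, limma adjusted p = 0.345), and those of its other 2 probe sets were 0.02 and 0.16. The change of Fbln5 less the change of Fbln1 was -0.57 (SE 0.24), with within-array differences of -1.12 to -0.85 on the mutant arrays, against -0.76 to 0.00 on the control arrays (exact two-sided permutation p = 0.1, adjusted p = 0.1, the smallest possible). This permutation test could not pass 0.05 for any of the 3 pairs, so it does not tell which of them differ.

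For the fibulins, which hold both genes that lay below the controls and one that did not, the 250 bases before a transcription start are shown from RefSeq on GRCm38.p6, because β-catenin reaches DNA through TCF/LEF factors. Efemp1, or fibulin-3, is the fibulin outside the 10 genes that was called lower. Windows on 1 chromosome were left out for the elastic fiber genes but kept in the count over all windows given below. Genes that lie on it therefore have no window here. Mfap4, Mfap5 and Eln have no window for another reason, as they had no entry among the promoter sequences used. Of the 10 genes, 5 (Mfap2, Fbn1, Fbln1, Fbln2 and Fbln5) had 8 such windows among those used. The called genes Mfap4, Mfap5, Eln and Lox had none, so their upstream bases were not searched. Capitals mark GC boxes (GGGCGG on either strand) and would also mark the TCF/LEF core, spelled as CTTTGAA or as CTTTGAT, and also as CTTTGTA or as CTTTGTT, on either strand. The motifs can share at most 1 base, and windows of 1 gene may overlap each other.

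Fbln5, chr12:101819120-101819369, minus strand: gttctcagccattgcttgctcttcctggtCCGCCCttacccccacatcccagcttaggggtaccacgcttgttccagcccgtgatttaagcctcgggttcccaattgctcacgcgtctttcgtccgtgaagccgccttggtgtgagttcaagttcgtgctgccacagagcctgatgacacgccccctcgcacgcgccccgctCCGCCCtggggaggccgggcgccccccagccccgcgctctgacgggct
Fbln2, chr6:91212514-91212763, plus strand: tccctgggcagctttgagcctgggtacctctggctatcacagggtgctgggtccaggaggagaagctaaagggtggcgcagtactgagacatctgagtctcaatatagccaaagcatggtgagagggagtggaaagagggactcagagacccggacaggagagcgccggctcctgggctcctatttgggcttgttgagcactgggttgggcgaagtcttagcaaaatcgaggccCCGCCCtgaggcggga
Fbln1, chr15:85205758-85206007, plus strand: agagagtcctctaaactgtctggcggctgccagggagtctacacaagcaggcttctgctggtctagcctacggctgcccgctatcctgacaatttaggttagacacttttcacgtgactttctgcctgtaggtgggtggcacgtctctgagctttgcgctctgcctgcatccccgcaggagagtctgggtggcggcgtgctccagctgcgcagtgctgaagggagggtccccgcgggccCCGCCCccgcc
Efemp1, chr11:28852955-28853204, plus strand: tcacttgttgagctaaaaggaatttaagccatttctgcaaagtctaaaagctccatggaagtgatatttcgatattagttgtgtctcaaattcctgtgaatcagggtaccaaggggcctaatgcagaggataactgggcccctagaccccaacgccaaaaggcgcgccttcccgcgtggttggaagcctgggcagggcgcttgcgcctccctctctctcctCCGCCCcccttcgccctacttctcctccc

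None of these 4 windows, and none of the 8 windows counted for 5 of the 10 genes, held the TCF/LEF core. Of all 32851 windows of the same length, 14.8% held it. A GC box was found in 5 of the 8, against 32.7% of all windows, with 2 in the printed window of Fbln5 and 1 each in those of Fbln2, Fbln1 and Efemp1. The GC content of the printed windows was 65.2% for Fbln5, 58.8% for Fbln2, 62.4% for Fbln1 and 53.6% for Efemp1. Of 26 windows counted for 19 other elastic fiber genes, 1 held the TCF/LEF core, a window of Fbln7. A missing match says only that these letters are not in the window.

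Of 27 other listed genes of elastic fibers and microfibrils 24 were measured, and 5 of them rose, 3 fell and 16 did not pass in the mutant. Their median log2 fold change was -0.09. Over all genes, 5.61% were called higher and 6.36% lower. Efemp1, a short fibulin, had log2 intensities of 8.41, 7.76 and 7.60 in the mutant, against 8.92, 9.21 and 8.78 in the control, with mutant replicate 1 again nearest to the controls. Its log2 fold change was -1.05 (SE 0.21, limma adjusted p = 0.0208). Fbln7, another short fibulin with low intensities in both groups, rose by 0.67 (SE 0.13, limma adjusted p = 0.0168). Of the latent TGF-β binding proteins, which tether latent TGF-β to microfibrils, Ltbp4 had 6.31, 5.57 and 5.48 in the mutant, against 6.94, 6.85 and 6.54 in the control. Ltbp4, which also helps fibulin-5 to deposit elastin, thus had a log2 fold change of -0.99 (SE 0.22, limma adjusted p = 0.0277). Ltbp2 rose by 0.62 (SE 0.14, limma adjusted p = 0.0264), with both groups under an intensity of 16. Ltbp3 was not called, at -0.14.

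Of 7 measured ADAMTS and ADAMTS-like proteins that bind microfibrils, Adamtsl2 and Thsd4 (ADAMTS-like 6) rose, at 0.79 (SE 0.12, limma adjusted p = 0.0075) and 0.49 (SE 0.08, limma adjusted p = 0.00857). Adamts10, which binds fibrillins, had a log2 fold change of -0.52 (SE 0.13, limma adjusted p = 0.0406). Pcolce, an enhancer of the protease that processes procollagen, rose by 0.44 (SE 0.10, limma adjusted p = 0.0276). None of the 3 measured lysyl oxidase-like genes passed the test. Loxl1, which is required for elastic fiber upkeep in mice and was named after its values were seen, lay below the controls on every mutant array at -0.46 (SE 0.13, limma adjusted p = 0.0567). Emilin3 (0.57, limma adjusted p = 0.0635), Atp7a (0.42, 0.0638) and Ltbp1 (0.65, 0.0668), also named afterwards, were not called but lay above the controls on every mutant array. Of the 24 genes, 8 lay above in this way and 4 below, against 14.9% and 17.4% of all genes. Emilin1, found at the border of the elastic core and the microfibrils, was not called, at 0.07.

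Adamtsl2 and Thsd4 stayed called whichever array was left out, but with the probe sets of each gene averaged, the calls of Thsd4 (0.27, adjusted p = 0.11) and Adamts10 (-0.30, adjusted p = 0.177) were lost. Averaged in the same way, Pcolce rose by 0.57 (limma adjusted p = 0.00506). Efemp1 (-1.07 to -0.89, adjusted p of 0.0537 to 0.0837) and Ltbp4 (-0.96 to -0.84, adjusted p of 0.0753 to 0.105) were no longer called when mutant array 2 or 3 or control array 1 or 2 was left out. For Fbln7 this held for mutant arrays 2 and 3 and control array 2 (0.60 to 0.68, adjusted p of 0.0512 to 0.0582), and for Ltbp2 for mutant arrays 2 and 3 and control arrays 1 and 3 (0.49 to 0.66, adjusted p of 0.0554 to 0.0856). Adamts10 kept its call only without mutant array 1 (elsewhere -0.59 to -0.40, adjusted p of 0.0586 to 0.132), and Pcolce only without control array 2 (elsewhere 0.39 to 0.47, adjusted p of 0.0512 to 0.112). Each gene kept its direction in all of these fits. Control replicates 1 and 2 of Adamtsl2 lay under an intensity of 16. With values under 16 set to 16, Adamtsl2 (0.71, limma adjusted p = 0.0547) and Fbln7 (0.31, limma adjusted p = 0.111) were not called. Of the genes named here, only Thsd4 was still called at that floor (0.49, limma adjusted p = 0.0314).

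Of 9 enzymes known to cut elastin, 2 rose, 2 fell and 5 did not pass, with a median log2 fold change of 0.22. The shares over all genes were 5.61% called higher and 6.36% called lower. Mmp7, or matrilysin, had log2 intensities of 4.55, 6.07 and 6.33 in the mutant, against 4.15, 2.59 and 3.42 in the control, so that mutant replicate 1 and control replicate 1 lay close together. Its log2 fold change was 2.26 (SE 0.52, limma adjusted p = 0.0316). Control replicates 2 and 3 of Mmp7 lay under an intensity of 16, and with values under 16 set to 16 the log2 fold change was 1.6 (adjusted p = 0.212). Mmp12, the macrophage elastase, rose by 0.32 (SE 0.08, limma adjusted p = 0.044), with both groups far under an intensity of 16. Ctsk, or cathepsin K, had 7.14, 6.79 and 7.04 in the mutant, against 7.67, 7.32 and 7.66 in the control, a log2 fold change of -0.56 (SE 0.13, limma adjusted p = 0.0343). Mmp14, a membrane protease, had a log2 fold change of -0.48 (SE 0.11, limma adjusted p = 0.034). The brightest enzymes that were not called were Ctsl and Mmp2, at 0.30 and 0.22, and Ctsl was called higher with its probe sets averaged (0.48, adjusted p = 0.0361). None of the 4 enzyme calls held for every array left out. Mmp12 lost its call in each of the 6 fits (0.28 to 0.36, adjusted p of 0.0614 to 0.162) and Mmp14 in all but the fit without mutant array 1 (-0.54 to -0.40, adjusted p of 0.053 to 0.127). Mmp7 lost it without mutant array 2 or 3 or control array 2 or 3 (1.87 to 2.28, adjusted p of 0.0823 to 0.119), and Ctsk without mutant array 2 or 3 or control array 1 or 3 (-0.59 to -0.46, adjusted p of 0.0736 to 0.127).

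**Figure D3:**
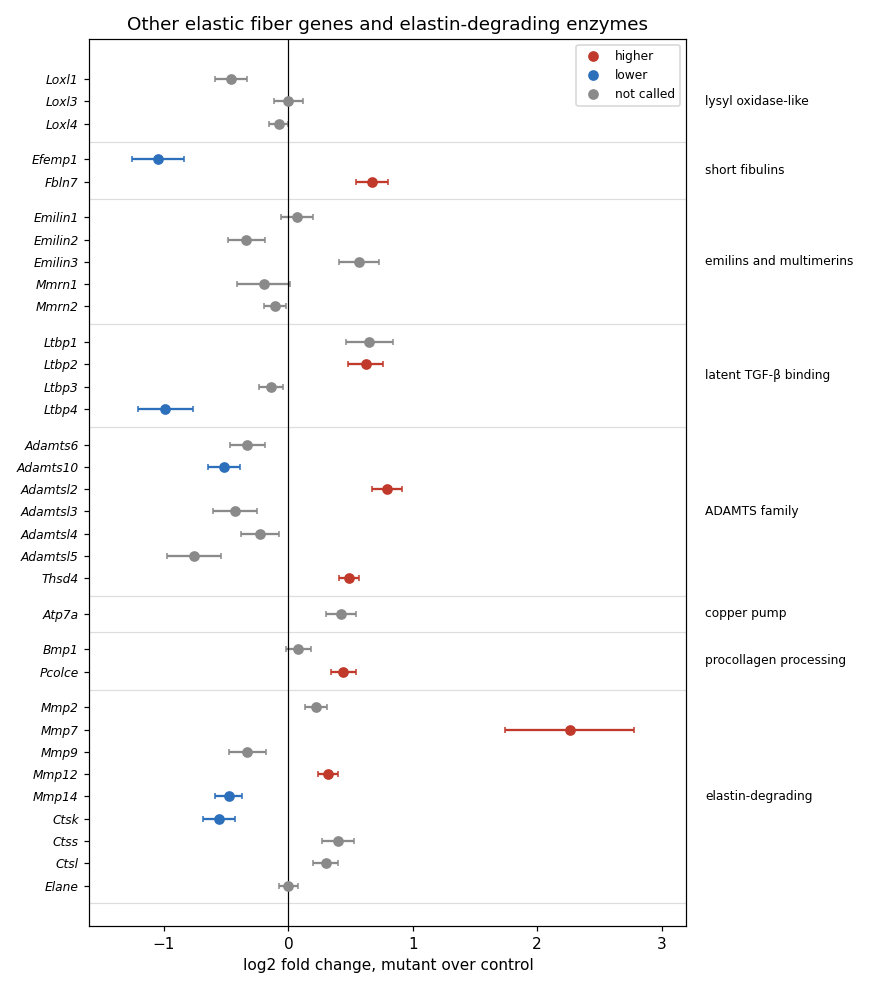
Log2 fold change of mutant over control (x axis) with its SE from limma for 24 other elastic fiber genes and 9 elastin-degrading enzymes (y axis, grouped by role at the right); red is called higher, blue lower and grey not called. Efemp1 and Ltbp4 stand lowest at -1.05 and -0.99, and Mmp7, with 2 of its 3 control arrays under an intensity of 16, highest at 2.26.

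Markers of uterine cell types were set beside these changes. Among all genes, 5.61% were called higher and 6.36% lower. Of 10 markers of stromal fibroblasts, none was called lower and 1 was called higher (Hand2, a stromal transcription factor, at 1.49, SE 0.18, limma adjusted p = 0.00315). Every mutant array lay below every control array for 4 of the 10 and above for 1, against 17.4% and 14.9% of all genes. The median log2 fold change of the list was -0.22. Its intensities summed to between 17400 and 19000 on the mutant arrays, against 18300 to 19900 on the control arrays. The 2 brightest stromal markers weigh most in these sums. Of 10 smooth muscle markers none was called, with sums of 11300 to 12900 in the mutant, against 11300 to 13200 in the control, and each of these markers had a mean above an intensity of 16. Here too the 2 brightest markers weigh most in the sums. Of 7 measured markers of adventitial fibroblasts, the sheath cells of vessels which are known to make matrix, 2 were lower and 1 was higher, with sums of 2160 to 2980 in the mutant, against 3780 to 4080 in the control. Dpt was the brightest marker of the list and weighs most in these sums. The lower markers were Dpt, dermatopontin of the matrix, at -1.0 (SE 0.21, limma adjusted p = 0.023), and Cd34, a surface sialomucin also found on endothelium, at -0.89 (SE 0.19, limma adjusted p = 0.0235). Dpt had log2 intensities of 10.38, 9.55 and 9.59 in the mutant, against 10.83, 10.92 and 10.78 in the control, the same order of the mutant arrays as for Mfap4 and Mfap5. Such an order was common: of all genes called lower, mutant array 1 was the highest mutant array for 62.3% and mutant array 2 the lowest for 57.8%. The higher marker was Anxa3, an annexin named after its values were seen, at 0.63 (SE 0.16, limma adjusted p = 0.043), and the other 4 were not called. Dpt stayed called only when mutant array 1 was left out (elsewhere -1.03 to -0.86, adjusted p of 0.0605 to 0.0837), and Cd34 was not called without mutant array 2 or 3 or control array 1 or 3 (-0.93 to -0.77, adjusted p of 0.0664 to 0.0904). Anxa3 was called only without mutant array 1 (elsewhere 0.49 to 0.68, adjusted p of 0.0966 to 0.142).

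All 5 measured adipocyte markers lay above the controls on every mutant array, against 14.9% of all genes, and 2 were called higher, against 5.61%. They were Retn, the adipokine resistin, at 2.35 (SE 0.59, limma adjusted p = 0.0407), and Cidec, a lipid droplet protein, at 1.82 (SE 0.29, limma adjusted p = 0.009). Control replicates 1 and 3 of Cidec lay under an intensity of 16. With values under 16 set to 16, Cidec was at 1.24 (limma adjusted p = 0.0458) and Retn was not called (limma adjusted p = 0.204). The call of Retn was kept only without control array 2 or 3 (elsewhere 2.02 to 2.66, adjusted p of 0.0664 to 0.146), and without control array 3 its log2 fold change was 1.62 (adjusted p = 0.0325). The intensities of the 5 summed to between 2450 and 3860 in the mutant, against 172 to 1410 in the control, with control replicate 3 the lowest array. Of 6 macrophage markers 2 were higher and none was lower, of 8 endothelial markers 1 was lower, and of 6 mesothelial markers none was called. The share called lower over all genes was 6.36%. Of 8 epithelial markers 1 was lower (Krt18, a keratin of simple epithelia, at -0.80, SE 0.12, limma adjusted p = 0.00584) and none was higher. Their median log2 fold change was -0.40, and their intensities summed to between 3430 and 4870 in the mutant, against 4790 to 5690 in the control. The part of cell makeup in the changes of Mfap4, Mfap5, Lox and Eln was not tested.

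**Figure D4:**
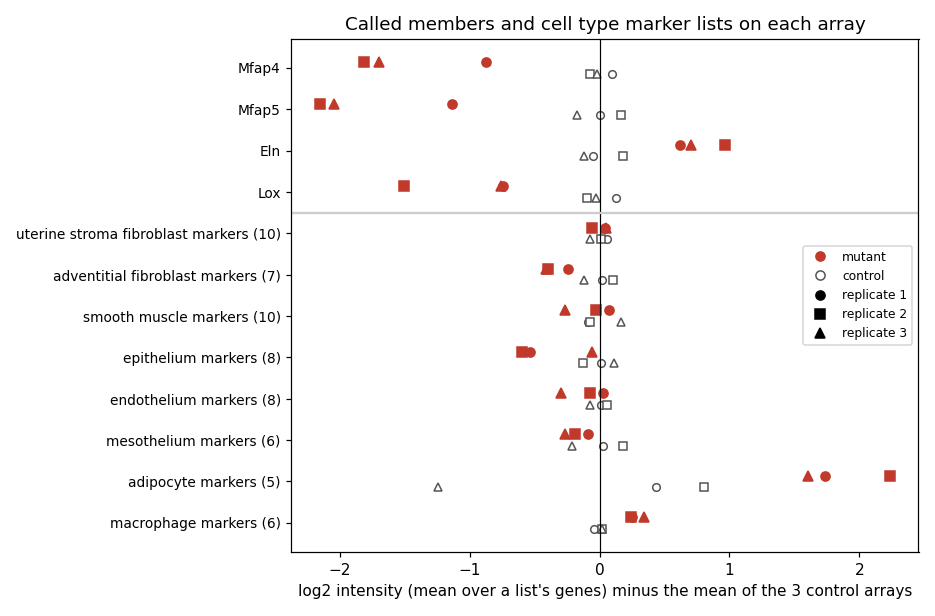
Each point is 1 array: for Mfap4, Mfap5, Eln and Lox the log2 intensity, and for 8 marker lists (number of measured genes in brackets) the mean log2 intensity, minus the mean of the 3 control arrays (x axis); red filled points are mutant, grey open points control, and symbols mark the replicate number. Mfap4, Mfap5 and Lox lie below 0 and Eln above 0 on every mutant array. The means of the adventitial fibroblast, epithelium and mesothelium markers lie below 0 on every mutant array. Those of the macrophage and adipocyte markers lie above 0 on every mutant array, and those of the adipocyte markers spread widely among the control arrays.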

How the data were processed

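Total RNA of uteri was hybridized to Affymetrix mouse arrays, 3 mutant and 3 control, grouped and numbered by the sample titles. The authors deposited 1 linear intensity per probe set and array. RMA is the 1 tool in their processing notes, and no version of it was found there. For the fits, each value was turned to log2, and none was under the floor of 1. Symbols came from the annotation that GEO holds for the platform: 34945 probe sets had 1 symbol, 932 had several and 9160 had none, and no coordinates were taken for the probes. Mutant and control were compared across all genes with limma 3.58.1 in R 4.3.3 (functions lmFit and eBayes without covariates, Benjamini-Hochberg adjusted p under 0.05), once over 18193 genes and once over 45037 probe sets. Standard errors of fold changes were taken from limma, and those beside within-array differences come from the arrays' variances. The steps were tested on simulated data first. At most 2.11% of probe sets were identical between any pair of arrays. The members and gene lists were chosen with earlier results of these data known. Genes named outside the members are those called in each list and the 2 brightest of the rest, with at most 2 called markers per cell type. Beyond this, Loxl1, Emilin3, Atp7a, Ltbp1 and Anxa3 were named after their values were seen. Alternatives covered the scaling, the probe set used, low values, the spread, the call rule and the arrays left out.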

Additional observations from a re-analysis of the deposited data

How the results depend on the processing

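As reported, the genes called higher and lower were 1 and 3 for the 9 elastic fiber and microfibril genes, 2 and 4 for their 19 probe sets, 5 and 3 for the 24 other elastic fiber genes and 2 and 2 for the 9 enzymes. For all 18193 genes they were 1021 and 1157. With the general t-test of the methods on each gene alone, 0 were called in every one of these sets after adjustment, and 105 and 39 were called over all genes. At an unadjusted p under 0.05 the same t-test gave 1 and 3 of the 9 genes and 1924 and 2224 of all genes. With a floor of 16, 0 were called in every set except 1 other elastic fiber gene called higher, with 283 and 243 of all genes, and the cause was not tested. On leaving out each array, the 9 genes gave 1 higher and 2 to 4 lower, their probe sets 1 to 2 and 3 to 5, the other genes 2 to 6 and 0 to 5, and the enzymes 0 to 2 each way, with 480 to 971 higher and 372 to 1139 lower over all genes. The enzymes called higher fell to 1 with arrays centred on their medians, with quantile normalization and with the lowest 40% of genes left out, and with a fold above 1.5 and an unadjusted p under 0.05 they were 1 higher and 0 lower (757 of all genes lower). The probe sets called higher were 1 with quantile normalization, and 5 other genes were lower with array weights. With the replicate number as a block, 1 probe set of the members and 0 enzymes were higher, the Lox probe set 1448228_at was called lower (adjusted p = 0.0447), and no other count moved by more than 1.5 times. Whether the replicate numbers pair the arrays was not settled. The deviations of same-numbered arrays correlated at 0.01, 0.21 and 0.16, and those of differently numbered arrays at -0.21 to 0.11. Without both control replicate 2 and mutant replicate 1, which was tried once the data had been seen, the 9 genes gave 1 higher and 3 lower, with 1 probe set and 1 enzyme higher.

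Directions changed only for values near 0 that were never called. Over the fits that left out 1 array or both named arrays, Mfap2 ran from -0.01 to 0.14, Emilin1 from -0.12 to 0.17, the Fbln1 probe set 1422540_at from -0.03 to 0.08, and the dim probe sets of Lox from -0.19 to 0.02, of Fbln2 from -0.19 to 0.04 and of Fbln5 from -0.06 to 0.2. An intensity of 16 was not reached by 62.3% to 62.6% of probe sets per array, and changes there may be understated.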
